A study of Mus musculus with 6 samples.

Results

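Basement membranes are thin sheets of matrix that line the vitreal face of the retina and surround its vessels. Their core polymer is laminin, a heterotrimer of an alpha, a beta and a gamma chain. Nidogens bind the gamma 1 chain and link laminin to type IV collagen, and perlecan is a heparan sulfate proteoglycan woven into the same sheet. In the retina, the sheet at the vitreal face is the inner limiting membrane, on which the endfeet of Müller glia rest, and a second kind is shared by endothelial cells and pericytes. The genes described are those of 4 laminin alpha chains (*Lama1*, *Lama2*, *Lama4* and *Lama5*), the beta 1 and beta 2 chains (*Lamb1* and *Lamb2*), the gamma 1 chain (*Lamc1*), the nidogens (*Nid1* and *Nid2*) and perlecan (*Hspg2*). They were taken as a named list, matched by symbol, and make up 10 of the 55421 genes in the count table.

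Expression was measured by RNA sequencing of whole retinas from 2-month-old mice, with 3 control (*Yap* fl/fl) and 3 *Yap* cKO (*Yap* fl/fl;*RaxCreERT2*) retinas, described as independent biological replicates. Values of single retinas are listed in the order YR612, YR613, YR615 for control and YR711, YR713, YR714 for *Yap* cKO. All 6 animals carried the floxed allele and received 4-hydroxytamoxifen at postnatal days 10 and 14, so that the groups differ by the Cre transgene. According to the study, this Cre is active in Müller glia and in the non-pigmented epithelium of the ciliary body, whereas the RNA came from every cell type of the dissected retina. In such bulk samples, fewer cells of a type and less RNA per cell cannot be told apart. *Yap1* itself had 9.61 ± 0.189 TPM (SD, n = 3) in control against 3.90 ± 0.120 TPM (SD, n = 3) in *Yap* cKO, and no *Yap* cKO retina reached the control range.

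Between 24261799 and 35067068 fragments per retina were assigned to genes, of which a member gene received between 43 (*Lama2*) and 936 (*Lamc1*). Levels are given as TPM, a length-normalized share of each library that divides counts by exonic length and so allows genes to be compared with each other. Differences are log2 fold changes, *Yap* cKO relative to control, from edgeR's quasi-likelihood test on the counts of all 16575 genes tested, with 95% intervals and Benjamini-Hochberg adjusted p-values. Differential expression required an adjusted p no higher than 0.05, a change of 1.5-fold or more, and 5 TPM or more as the mean of either group. In single retinas, expression relative to the mean of all 6 followed exonic length across the tested genes. Spearman's rho was -0.414, 0.168 and -0.403 in the control retinas, against 0.391, 0.384 and -0.154 in the *Yap* cKO retinas. The uncorrected log2 fold change itself had a rho of 0.391 with exonic length, so the comparison of genotypes carries this trend. Since the member genes are long (5174 to 16605 bases, median 9799, against 4132 for all tested genes), each difference is also given after a correction of every retina for this trend. The tissue label was checked on photoreceptor markers, whose summed level over 7 genes was between 51700 and 55100 TPM in control and between 48700 and 52800 TPM in *Yap* cKO retinas.

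YAP has no DNA-binding domain and reaches its target genes through TEAD factors, so the promoters of the member genes were searched for the core TEAD motif GGAATG on both strands (CATTCC on the other). The RefSeq promoter table (GRCm38.p6) held windows of 300 bases, 250 before and 50 after the transcription start, for 6 of the 10 genes, namely *Hspg2*, *Lama2*, *Lama5*, *Lamb1*, *Lamb2* and *Nid1*. The motif was found in 1 of them, *Nid1*, at position -165 from the start, while 14.7% of all 32851 promoters in the table held it. The windows differed in base composition, from 44.0% G and C with 4 CG dinucleotides in *Lamb2* to 72.7% with 24 in *Lama5*, against a median of 52.7% and 7 over the table. The 250 bases before the start are shown for *Nid1*, the promoter with the motif (in capitals), and for both beta chains, which serve in the same place of the trimer and differ in composition (63.7% G and C in *Lamb1*). They lie on the plus strand at chr13:13437352-13437601 (*Nid1*), chr12:31265043-31265292 (*Lamb1*) and chr9:108479612-108479861 (*Lamb2*).
*Nid1*: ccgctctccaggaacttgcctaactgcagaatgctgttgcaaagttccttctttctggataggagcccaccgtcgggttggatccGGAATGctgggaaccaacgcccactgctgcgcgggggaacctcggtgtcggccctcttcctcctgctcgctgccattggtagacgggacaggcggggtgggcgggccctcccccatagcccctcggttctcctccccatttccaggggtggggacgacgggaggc
*Lamb1*: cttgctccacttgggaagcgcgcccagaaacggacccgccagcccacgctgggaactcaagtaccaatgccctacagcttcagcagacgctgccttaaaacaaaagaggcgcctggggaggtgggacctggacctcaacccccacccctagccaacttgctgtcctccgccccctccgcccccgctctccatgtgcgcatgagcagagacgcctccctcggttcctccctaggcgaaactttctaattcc
*Lamb2*: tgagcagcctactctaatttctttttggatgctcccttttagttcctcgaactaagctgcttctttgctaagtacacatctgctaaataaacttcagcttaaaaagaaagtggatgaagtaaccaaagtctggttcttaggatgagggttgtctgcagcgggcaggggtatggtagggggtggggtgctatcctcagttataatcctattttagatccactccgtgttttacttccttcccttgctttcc
A match describes these letters only and says nothing of binding, and *Nid1* had no difference between the genotypes that passed the test.

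All 10 genes passed the filter on low counts, and none of them was differentially expressed in *Yap* cKO retinas, where 0.796% of all tested genes were (132 genes). With the correction for gene length the count was again 0 of 10, against 0.941%. Only *Lamb1*, *Lamb2* and *Lamc1* reached the mean of 5 TPM that the criteria require, so the other 7 genes could not have been called as lower, whatever the fold change. By adjusted p alone the count was also 0 of 10, against 1.49% of all tested genes. At an unadjusted p under 0.05, 4 of the 10 genes were lower in *Yap* cKO retinas (*Nid2*, *Lamb2*, *Lama5* and *Lamb1*), against 9.42% of all tested genes, and 0 of 10 were higher, against 12%. The same 4 genes were lower at that level with the correction for gene length, against 9.66%. In TPM, 3 genes (*Lama5*, *Lamb1* and *Nid2*) had every *Yap* cKO retina below every control, against 9.04% of all tested genes, and none the reverse. DESeq2's Wald test and edgeR's likelihood ratio test each gave 2 genes with an unadjusted p under 0.05 (*Nid2* and *Lamb2*) and called none. The median log2 fold change of the 10 genes was 0.02, and 0.00 over all tested genes, and 4 of the 10 values were below zero, against 49.7%. Corrected for gene length, this median was -0.19, again beside 0.00 over all tested genes, and 9 of the 10 genes had a value below zero, against 50% of all tested genes.

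**Figure D1:**
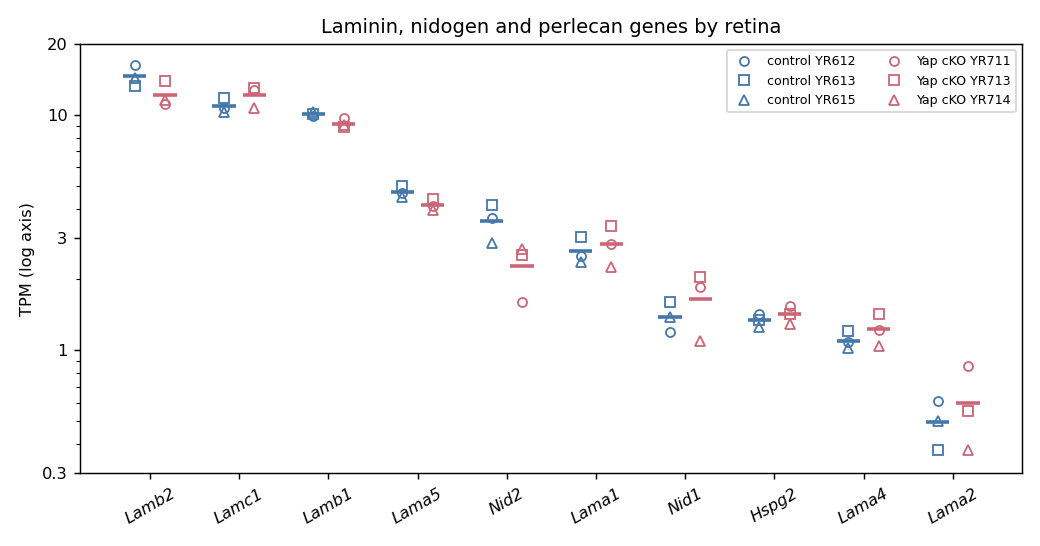
TPM on a log axis of the 10 genes in each retina, ordered by the control mean, with control retinas in blue, *Yap* cKO retinas in red and a bar at each group's mean (n = 3). The beta and gamma 1 chains lie highest and *Lama2* lowest in both groups, and the groups are apart in *Lamb1*, *Lama5* and *Nid2*.

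The beta and gamma 1 chains were the most abundant of these transcripts. In control retinas the order by mean TPM was *Lamb2*, *Lamc1*, *Lamb1*, *Lama5*, *Nid2*, *Lama1*, *Nid1*, *Hspg2*, *Lama4* and *Lama2*, from 14.6 ± 1.56 to 0.497 ± 0.117 TPM (SD, n = 3). The control ranges of neighbours in this order overlapped between *Lamc1* and *Lamb1*, between *Nid2* and *Lama1*, and between *Nid1* and *Hspg2*, and were separate for the other neighbours. In *Yap* cKO retinas, *Lamc1* and *Lamb2* both had a mean of 12.2 TPM and their ranges overlapped, and *Nid2* (2.28 TPM) had a lower mean than *Lama1* (2.83 TPM). The spread between control retinas was narrow for *Lamb1* (coefficient of variation 1.92%) and wide for *Lama2* (23.5%), the gene with the fewest counts.

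Among the alpha chains, which carry the globular domains that bind cell surface receptors, *Lama5* was the most abundant. This chain (ENSMUSG00000015647, chromosome 2 of GRCm38, 180176373 to 180225859), widespread in epithelial and vessel basement membranes, had 4.65, 5.0 and 4.48 TPM in the control retinas, against 4.12, 4.4 and 3.94 TPM in the *Yap* cKO retinas. Every *Yap* cKO retina was below every control retina, by a narrow margin. The log2 fold change was -0.24 (95% interval -0.46 to -0.01, unadjusted p = 0.0403, adjusted p = 0.213 by edgeR) and was -0.41 with the correction for gene length (adjusted p = 0.0623).

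*Lama1* (ENSMUSG00000032796, chromosome 17, 67697259 to 67822647), the alpha chain of the inner limiting membrane and of many embryonic basement membranes, had 2.52, 3.03 and 2.38 TPM in the control retinas, against 2.83, 3.38 and 2.27 TPM in the *Yap* cKO retinas. The groups overlapped, with the lowest and the highest value both in *Yap* cKO retinas. *Lama4* (ENSMUSG00000019846, chromosome 10, 38965515 to 39110188), typical of vessel walls, had 1.08, 1.21 and 1.02 TPM in control against 1.22, 1.43 and 1.04 TPM in *Yap* cKO. *Lama2* (ENSMUSG00000019899, chromosome 10, 26980036 to 27619758), best known from muscle and nerve, had 0.612, 0.378 and 0.502 TPM in control against 0.858, 0.554 and 0.379 TPM in *Yap* cKO. For both genes the groups overlapped. The log2 fold changes of these 3 chains were 0.04 (95% interval -0.32 to 0.40) for *Lama1*, 0.10 (-0.25 to 0.46) for *Lama4* and 0.19 (-0.47 to 0.85) for *Lama2*, and with the correction for gene length they were -0.09, -0.09 and -0.13.

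*Lamb2* (ENSMUSG00000052911, chromosome 9, 108479736 to 108490530), the beta chain of synaptic, glomerular and inner limiting membranes, had the highest level of the 10 genes. It had 16.3, 13.3 and 14.3 TPM in the control retinas, against 11.1, 13.9 and 11.6 TPM in the *Yap* cKO retinas. The *Yap* cKO retinas YR711 and YR714 lay below all controls, whereas YR713 lay above control YR613. The log2 fold change of *Lamb2* was -0.32 (95% interval -0.61 to -0.03, unadjusted p = 0.0334, adjusted p = 0.199 by edgeR), or -0.37 with the correction for gene length. *Lamb1* (ENSMUSG00000002900, chromosome 12, 31265234 to 31329644), the beta chain of most other basement membranes, had 9.87, 10.1 and 10.3 TPM in control against 9.68, 8.88 and 9.02 TPM in *Yap* cKO. The groups did not overlap, but YR711 came close to the lowest control, YR612. Its log2 fold change was -0.19 (95% interval -0.37 to -0.01, unadjusted p = 0.0409, adjusted p = 0.216 by edgeR), or -0.33 with the correction for gene length (adjusted p = 0.0861).

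*Lamc1* (ENSMUSG00000026478, chromosome 1, 153218922 to 153332786) encodes the gamma chain found in most laminin trimers. It had 10.7, 11.8 and 10.3 TPM in the control retinas, against 12.8, 13 and 10.7 TPM in the *Yap* cKO retinas. YR714 lay within the control range and the other *Yap* cKO retinas above it. The log2 fold change was 0.10 (95% interval -0.12 to 0.32), so that *Lamc1* was at 92.3% to 125% of the control level, and it was 0.00 with the correction for gene length.

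The nidogens had point estimates on opposite sides of zero. *Nid2* (ENSMUSG00000021806, chromosome 14, 19751265 to 19811787) had 3.63, 4.15 and 2.87 TPM in the control retinas, against 1.6, 2.55 and 2.69 TPM in the *Yap* cKO retinas. Every *Yap* cKO retina lay below every control, with YR711 farthest below and YR714 close to control YR615. The log2 fold change of -0.68 was the largest in size among the 10 genes (95% interval -1.17 to -0.19, unadjusted p = 0.0120), which is 62.4% of the control level with limits of 44.4% and 87.8%. By edgeR, this gave an adjusted p of 0.136, above the threshold, and with the correction for gene length the values were -0.70 and 0.102. Without the filter on low counts the adjusted p of *Nid2* was 0.00452, in a fit that called 6.19% of its genes by adjusted p, and its level remained under 5 TPM. With the correction for gene length and edgeR's likelihood ratio test together, it was 0.0351, where 6.21% of all tested genes passed. Exons of *Rtraf* overlap *Nid2* on the opposite strand, as *Gm48682* does for *Nid1* and *Gm48084* for *Lama2*, and the fragments were counted by strand.

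*Nid1* (ENSMUSG00000005397, chromosome 13, 13437551 to 13512269) had 1.20, 1.6 and 1.39 TPM in control against 1.85, 2.04 and 1.10 TPM in *Yap* cKO. YR711 and YR713 lay above all controls and YR714 below all of them. The log2 fold change was 0.20 (95% interval -0.31 to 0.71), and 0.12 with the correction for gene length. Perlecan, *Hspg2* (ENSMUSG00000028763, chromosome 4, 137468769 to 137570630), had 1.43, 1.35 and 1.26 TPM in control against 1.54, 1.42 and 1.29 TPM in *Yap* cKO, which overlapped. Its log2 fold change was 0.01 (95% interval -0.28 to 0.31) and, as that of a gene with 14739 exonic bases, moved to -0.25 with the correction for gene length (95% interval -0.57 to 0.08).

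**Figure D2:**
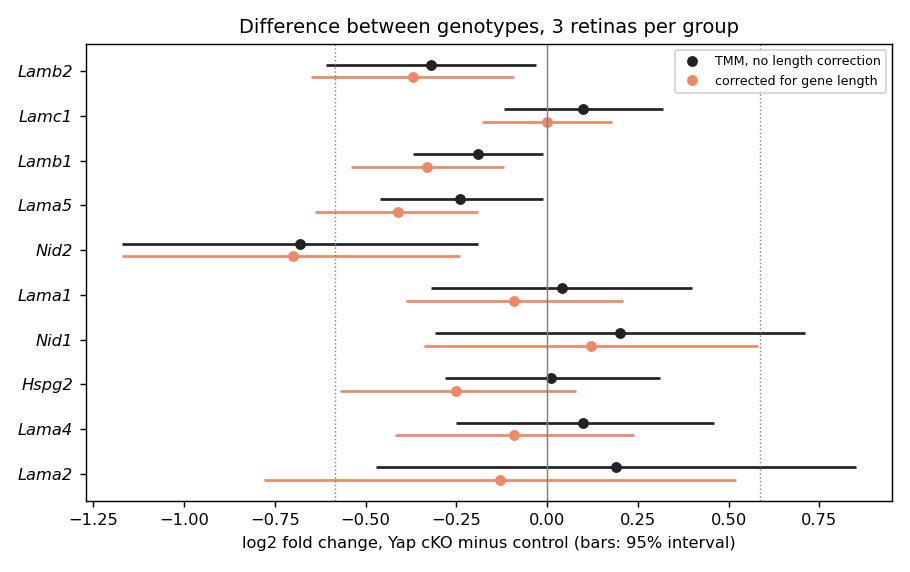
Log2 fold change, *Yap* cKO minus control, of the 10 genes with 95% intervals (3 retinas per group), without (black) and with (orange) the correction for gene length, and dotted lines at a fold change of 1.5. The interval of *Nid2* lies below zero in both fits, from -1.17 to -0.19 without the correction, and those of *Lamc1* and *Lama1* include zero in both.

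The intervals bound what these retinas could have held. For 6 of the 10 genes (*Lama1*, *Lama4*, *Lama5*, *Lamb1*, *Lamc1* and *Hspg2*) the 95% interval lay within a fold change of 1.5 in either direction. With the correction for gene length, that of *Lama5* (-0.64 to -0.19) reached beyond 1.5 on the lower side. Without it, the interval reached beyond 1.5 for *Lama2* and *Nid1* on the higher side and for *Lamb2* and *Nid2* on the lower side, so that the intervals of these 4 genes held differences of that size. With each retina left out in turn, none of the 10 genes was called. *Nid2* stayed between -0.82 and -0.49, *Lamb2* between -0.42 and -0.21, *Lama5* between -0.27 and -0.21 and *Lamb1* between -0.23 and -0.16.

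Levels were also compared between chains within each retina. Summed TPM of the 4 alpha chains was 8.95 ± 0.620 in control and 8.81 ± 1.08 in *Yap* cKO retinas (SD, n = 3), and that of the beta chains was 24.7 ± 1.43 and 21.4 ± 1.24. Relative to *Lamc1*, alpha chain TPM was 0.825, 0.816 and 0.817 in control against 0.705, 0.751 and 0.711 in *Yap* cKO. The controls lay close together and the *Yap* cKO retinas all below them. The ratio of beta chains to *Lamc1* was 2.27 ± 0.251 in control and 1.76 ± 0.150 in *Yap* cKO retinas, and that of the nidogens to *Lamc1* was 0.451 ± 0.0363 and 0.325 ± 0.0480. Neither ratio overlapped between the groups. These 3 ratios share the same denominator and are given as a description, with no test. The sums, ratios and shares given here and below use TPM, which was not corrected for the length trend. *Lamc1*, the denominator, had a log2 fold change of 0.10, and of 0.00 with that correction. The alpha chain sums overlapped between the groups and the beta chain sums did not. Among single tested genes, 9.04% were lower and 15.2% higher in *Yap* cKO without overlap. The smallest two-sided p that an exact permutation of 3 retinas against 3 allows is 0.1.

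Within the alpha chains, *Lama5* made up 52.4%, 52.0% and 53.4% of TPM in control against 45.7%, 45.1% and 51.7% in *Yap* cKO. The share of *Lama5* was lower and that of *Lama4* (12.3% ± 0.214 in control, 13.9% ± 0.609 in *Yap* cKO) higher without overlap, while the shares of *Lama1* and *Lama2* overlapped. *Lamb2* made up 59.1% ± 2.87 of the beta chains in control and 56.9% ± 3.92 in *Yap* cKO retinas. The ratio of *Nid2* to *Nid1* was 3.03, 2.60 and 2.07 in control against 0.867, 1.25 and 2.45 in *Yap* cKO, so that YR714 lay within the control range. The difference in response between *Nid1* and *Nid2* was not tested.

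**Figure D3:**
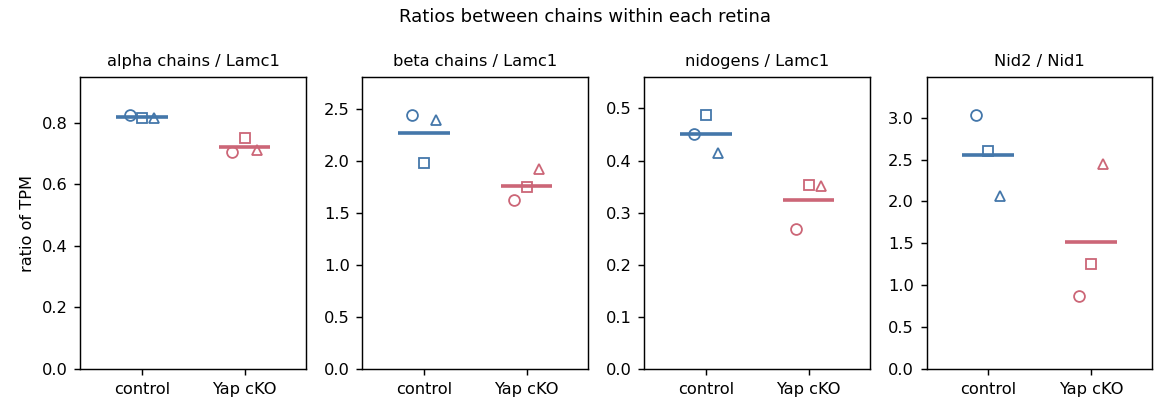
Ratio of TPM within each retina for the alpha chains, beta chains and nidogens relative to *Lamc1*, and for *Nid2* relative to *Nid1*, with control retinas in blue, *Yap* cKO retinas in red and bars at the group means. The first 3 ratios are lower in every *Yap* cKO retina than in any control, whereas *Nid2* to *Nid1* overlaps through YR714 at 2.45.

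For the 3 genes with the smallest p-values, the tested genes with the most similar profile over the 6 retinas were sought by the root mean square difference of centred log2(TPM + 0.1) values. They were *Nppb* (0.0709), *Tmc6* (0.0882) and *Bst1* (0.0928) for *Nid2*, *Epn3* (0.0285), *Itga7* (0.0402) and *Mcam* (0.0414) for *Lamb2*, and *Slc4a5* (0.0197), *Klhl21* (0.0285) and *Plxnb2* (0.0343) for *Lama5*. *Itga7* encodes a laminin-binding integrin chain and *Mcam* a cell adhesion molecule of vessel walls. *Itga7* had 3.16 ± 0.193 TPM in control against 2.61 ± 0.324 TPM in *Yap* cKO (SD, n = 3). A search over all tested genes on 6 values finds close profiles for any gene. The members were picked by small p, so the likeness includes the group difference. Shared regulation was not tested.

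Of the laminin chains outside the list, *Lama3* and *Lamc3* were tested and *Lamb3* did not pass the filter. Neither tested gene was differentially expressed by edgeR's quasi-likelihood test, had an unadjusted p under 0.05, or was called by DESeq2 or the likelihood ratio test. *Lamc3*, a gamma chain that can replace gamma 1, had 1.59 ± 0.236 TPM in control against 2.16 ± 0.231 TPM in *Yap* cKO (log2 fold change 0.39, adjusted p = 0.235 by edgeR), without overlap.

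Of 22 other basement membrane genes, all were tested, 0 rose and 2 fell by all criteria, where 0.585% of all tested genes were called lower. Of the 22 genes, 11 had an unadjusted p under 0.05. Among all tested genes, 9.42% had such a p and were lower, and 12% had one and were higher. The median log2 fold change of the 22 genes was 0.03, with 12 values above zero and 10 below. *Col18a1*, whose product is the source of endostatin, had the larger change, -1.96 on the log2 scale. *Ntn4*, a laminin-related netrin that binds laminin gamma chains, had 18.9, 21.6 and 21.5 TPM in control against 13.9, 12.5 and 12.9 TPM in *Yap* cKO. All *Yap* cKO retinas of *Ntn4* lay well below all controls. *Ntn4* fell by 0.72 on the log2 scale (SE 0.0945, adjusted p = 0.00824 by edgeR) and by 0.68 with the correction for gene length. The call was lost without control YR615 (adjusted p = 0.0636) or *Yap* cKO YR713 (adjusted p = 0.0517), with log2 fold changes of -0.69 and -0.68.

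The type IV collagen chains of most basement membranes, *Col4a1* and *Col4a2*, were not called. *Col4a2* had 12.1, 13.2 and 12.2 TPM in control against 15.3, 16.8 and 15.8 TPM in *Yap* cKO, a log2 fold change of 0.30 (adjusted p = 0.106 by edgeR), and *Col4a1* had 9.58 ± 0.121 and 11.7 ± 0.374 TPM (log2 fold change 0.23, adjusted p = 0.177 by edgeR). In both genes the *Yap* cKO retinas lay above all controls, as in 15.2% of all tested genes. *Col15a1*, with the second largest log2 fold change of this group, had 0.273 ± 0.0949 and 0.608 ± 0.194 TPM (log2 fold change 1.11, adjusted p = 0.137 by edgeR). Agrin (*Agrn*), a laminin-binding proteoglycan like perlecan, had 18.7 ± 0.986 and 21.4 ± 2.37 TPM (SD, n = 3), which overlapped.

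Of 7 laminin receptor genes, none was differentially expressed by edgeR's quasi-likelihood test and 3 had an unadjusted p under 0.05. Among all tested genes, 9.42% had such a p and were lower, and 12% had one and were higher. *Bcam*, the Lutheran glycoprotein that binds the laminin alpha 5 chain, had 30.2, 25.7 and 29.8 TPM in control against 16.1, 19.7 and 23.1 TPM in *Yap* cKO. The groups did not overlap, and the log2 fold change of -0.60 had an adjusted p of 0.0834 from this test. With the correction for gene length, the values were -0.54, below the fold change minimum, and 0.046. *Bcam* was the 1 receptor gene called by DESeq2 (adjusted p = 0.00669) and by the likelihood ratio test (adjusted p = 0.0106). *Itgb4*, the beta 4 integrin chain of hemidesmosomes, had 0.558 ± 0.119 and 0.312 ± 0.0761 TPM (log2 fold change -0.89, adjusted p = 0.135 by edgeR). Dystroglycan (*Dag1*), the main non-integrin laminin receptor of Müller endfeet, had 50.3 ± 3.46 and 54.6 ± 7.40 TPM, with a 95% interval of the log2 fold change from -0.16 to 0.28.

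The dystrophin complex ties dystroglycan to the cytoskeleton. Of its 11 genes 10 were tested, and 1 rose and 0 fell by all criteria, where 0.211% of all tested genes were called higher. An unadjusted p under 0.05 was found for 5 of the 10. Over all tested genes, 9.42% had such a p and were lower, and 12% had one and were higher. In this fit *Sntb1*, *Sntb2*, *Utrn* and *Dtna* were higher and *Sgce* was lower (log2 fold change -0.39). With the correction for gene length, *Utrn* (17108 exonic bases) moved from 0.38 to 0.09 (unadjusted p = 0.201 by edgeR). *Dtna* (16930 exonic bases) moved from 0.28 to -0.02 (unadjusted p = 0.843 by edgeR). *Sntb1*, *Sntb2* and *Sgce* kept an unadjusted p under 0.05. *Sntb1*, a syntrophin, had 17.2, 23.8 and 20.6 TPM in control against 36.4, 31.3 and 28.9 TPM in *Yap* cKO, a difference of 0.59 on the log2 scale (SE 0.115, adjusted p = 0.0421 by edgeR). Corrected for gene length, the difference was 0.56, below the fold change minimum. Its call was also lost when a single retina was left out, namely YR612 (adjusted p = 0.170 by edgeR), YR615 (0.185), YR711 (0.0955) or YR713 (0.166). *Sntb2*, with the next largest value, had 26.1 ± 6.94 and 36.8 ± 5.78 TPM (log2 fold change 0.44, adjusted p = 0.173 by edgeR).

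The enzymes that add the laminin-binding glycan to dystroglycan were represented by 12 tested genes. None was called by edgeR's quasi-likelihood test, DESeq2 or the likelihood ratio test. None had an unadjusted p under 0.05, where 9.42% of all tested genes had one and were lower and 12% were higher. Their median log2 fold change was 0.09. *Large2*, a glycosyltransferase of this group, had 0.444 ± 0.0408 and 0.355 ± 0.103 TPM in control and *Yap* cKO (SD, n = 3), a log2 fold change of -0.41.

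**Figure D4:**
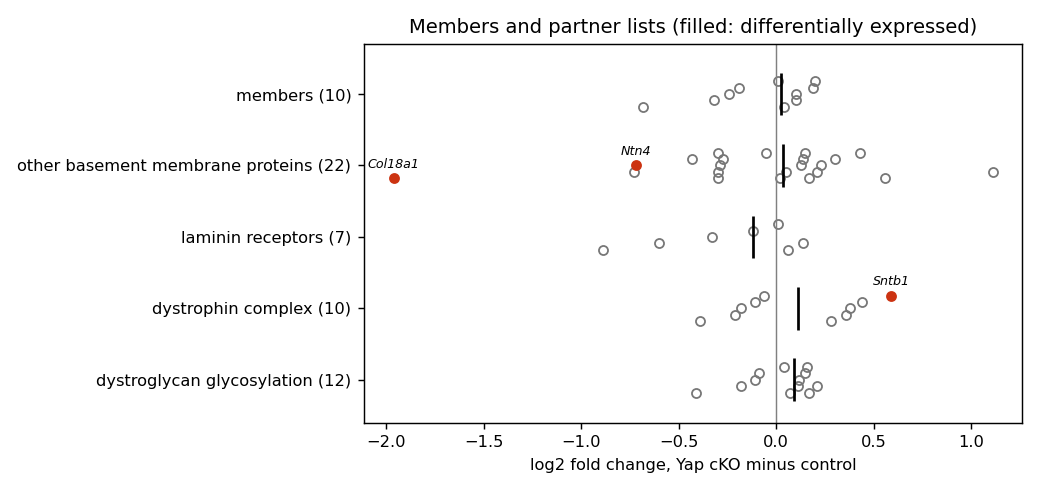
Log2 fold change, *Yap* cKO minus control, of every tested gene among the 10 members and 4 partner lists (number tested in brackets), with filled points for differentially expressed genes and a black bar at each list's median. *Col18a1* and *Ntn4* lie on the lower side and *Sntb1* on the higher side, and no point of the members is filled.

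Markers of cell types of the eye were measured beside the member genes. For comparison, 9.42% of all tested genes had an unadjusted p under 0.05 and were lower, and 12% had one and were higher. Of 9 endothelial markers 0 were called by edgeR's quasi-likelihood test or by DESeq2, 2 had an unadjusted p under 0.05, and their summed level was 227 to 239 TPM in control and 198 to 261 TPM in *Yap* cKO retinas. Of 8 mural cell markers 0 were called by either tool and 1 had an unadjusted p under 0.05, with sums of 100 to 105 and 90.0 to 117 TPM. *Rgs5* alone had 70.5 ± 2.07 and 73.6 ± 9.98 TPM of these sums (SD, n = 3). Of 8 Müller glia markers 0 were called and 4 had an unadjusted p under 0.05, with sums of 5460 to 5850 and 5020 to 5660 TPM. Of these 4, *Rlbp1* (log2 fold change -0.36), *Aqp4* (-0.35) and *Glul* (-0.21) were lower and *Kcnj10* (0.28) was higher. *Glul* alone had 3020 ± 118 and 2710 ± 259 TPM of the Müller glia sums (SD, n = 3). Astrocyte markers summed to 88.2 to 111 TPM in control and 86.5 to 95.6 TPM in *Yap* cKO retinas (4 genes, of which *Aldh1l1* fell), and microglia markers to 28.6 to 34.2 and 36.4 to 37.6 TPM (5 genes, 0 called by edgeR or DESeq2, 2 with an unadjusted p under 0.05). Sums that did not overlap and were lower in *Yap* cKO retinas were those of the ciliary body and retinal margin (74.7 to 89.9 against 22.0 to 41.1 TPM, 5 genes, of which *Optc* fell), melanin pigment cells (70.6 to 77.9 against 16.7 to 47.7 TPM, 5 genes, of which *Pmel* fell), fibroblasts (10.9 to 13.2 against 7.89 to 10.8 TPM, 7 genes) and lens (2.62 to 6.18 against 1.62 to 2.53 TPM, 5 genes, with *Lim2* at zero in every retina). The call of *Pmel* (adjusted p = 0.0347 by edgeR) was lost when YR612 (0.160), YR615 (0.157) or YR711 (0.0717) was left out. In the fibroblast sum, *Col1a2* had 3.52 ± 0.732 and 0.811 ± 0.244 TPM (SD, n = 3; adjusted p = 0.00236 by edgeR), whereas *Pdgfra*, *Col3a1* and *Col1a1* had log2 fold changes of -0.05, 0.00 and 0.08. Retinal pigment epithelium markers ran from 171 to 200 TPM in control and from 45.1 to 199 TPM in *Yap* cKO retinas (4 genes). The part of these cells in the values of *Nid2*, *Lamb2*, *Lama5* and *Lamb1* was not tested.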

How the data were processed

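The labels describe total RNA of 6 mouse retinas in stranded libraries of polyadenylated RNA. The authors aligned paired reads to GRCm38 with STAR 2.7.3a (per the submitters' processing notes) and obtained exon-based fragment counts for each gene from featureCounts 1.6.2, strand setting 2 and annotation release 98 (per the file header). The deposited values are raw counts without normalization, 1 column per retina, with each gene's exonic length in bases. Symbols were found for 55154 of 55421 genes.

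Counts were filtered with filterByExpr, normalized by TMM (factors 0.986 to 1.02) and tested with edgeR 4.0.16 (R 4.3.3) by the quasi-likelihood test with Benjamini-Hochberg adjustment over 16575 genes. No covariate was used, since the labels name none. The criteria follow the study's methods, which name edgeR but not the test. TPM was computed from counts and exonic length. Intervals use the standard error (log2 fold change over the root of F) and a t quantile. The length correction entered a loess trend (span 0.3) of relative expression on log2 exonic length per retina as an offset. DESeq2 1.42.0, other size factors, no filter, the likelihood ratio test and each retina left out were alternatives, and the steps were tested on simulated data. GENCODE M21 gave the same coordinates for all 10 genes.

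All members are named, as are list genes that were called and the 2 largest changes per list, and for the 3 members with the smallest p the 3 genes most like each in profile. *Col4a1*, *Col4a2*, *Agrn*, *Dag1*, *Utrn*, *Dtna*, *Sgce*, *Kdr*, *Rgs5*, *Glul*, *Kcnj10* and the fibroblast genes were added after their values were seen. Some list genes that this rule selects are not reported here. The members and lists were chosen with earlier results of these data known. P-values test the difference between the groups against a spread between retinas (3 per group) that is estimated with information shared across genes.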

Additional observations from a re-analysis of the deposited data

How the results depend on the processing

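The count of differentially expressed members was 0 under every alternative run. Over all genes it was 132, and 369 without the filter on low counts, 263 by DESeq2's Wald test, 291 by edgeR's likelihood ratio test and 246 by that test with the correction for gene length, a combination chosen after seeing the data. With each retina left out it ran from 38 (without control YR615) to 516 (without control YR613), with 40 without control YR612, 68 without *Yap* cKO YR713 and 448 without *Yap* cKO YR714. Without a minimum fold change or with a minimum of 1 TPM, members stayed at 0.

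Signs of small differences turned. With the correction for gene length, log2 fold changes became -0.09 for *Lama1*, -0.13 for *Lama2*, -0.09 for *Lama4*, 0.00 for *Lamc1* and -0.25 for *Hspg2*, and with the likelihood ratio test added -0.09, -0.14, -0.09, 0.00 and -0.24. In that last fit *Lama5* (-0.41, adjusted p = 0.0230) and *Nid2* (-0.71, adjusted p = 0.0351) passed the adjusted p threshold, as 6.21% of all tested genes did. *Nid2* passed without the filter on low counts too (-0.68). With each retina left out, *Lama1* ran from -0.11 to 0.16, *Lama2* from -0.14 to 0.41, *Lama4* from -0.02 to 0.19 and *Hspg2* from -0.04 to 0.08, and no member passed. The causes were not tested. No paired analysis was possible because the labels give animal codes that the groups do not share. Few counts limit *Lama2* and *Nid1* most.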
